A study of Mus musculus with 68 samples.

Results

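Heat-shock proteins are molecular chaperones, and 10 of their genes are described here in the mouse uterus after oestradiol (E2) and after insulin-like growth factor 1 (IGF1). The 10 genes are Hsph1, Hspa1a, Hspa1b, Hspa8, Hsp90aa1, Hsp90ab1, Hspd1, Hspe1, Dnajb1 and Hspb1. Each was read from the array probe set annotated to that gene alone and, where several existed, from the one with the highest mean over all arrays. This gave 8 of the 10 genes, out of 30142 genes measured. Hsp90ab1 had no probe set under its symbol in the annotation, and Hspa1b was named only on a probe set that it shares with Hspa1a.

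RNA came from the uterus of ovariectomized mice, on 68 arrays in 25 groups of 2 or 3 arrays. There were 3 mouse sets. C57Bl6 wild types gave 14 arrays. Ex3aERKO mice, which are null for Esr1 on a C57Bl6 background, gave 11 arrays, and their wild-type littermates gave 14. Esr1 encodes oestrogen receptor alpha (ERα). ERaUtcKO mice (Esr1f/f;PgrCre+) gave 15 arrays and their wild-type littermates 14. In the latter line Cre is driven from the progesterone receptor gene, so Esr1 is removed only in cells that have expressed Cre. Treatments were 100 ul saline vehicle, 250 ng E2 or IGF1, given intraperitoneally. For IGF1 the labels describe both a 50 ug injection and a 3 day pump at 0.5 mg/ml, without saying which mice had which. Uteri were collected at 2 h or at 24 h, and vehicle uteri at 24 h, so that a 2 h value is set against a later vehicle value throughout. No ages are given. In 7 groups 2 arrays remained because the authors had left out an outlier, and the spread within those groups may be understated. By its title the series addresses how far ERα mediates what IGF1 does in the uterus.

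Chaperones bind unfolded or partly folded proteins and let them fold again. HSP70 proteins do so in cycles of ATP hydrolysis, which J-domain proteins such as Dnajb1 start and nucleotide exchange factors such as Hsph1 (an HSP110) complete. HSP90 receives clients from HSP70 and holds steroid receptors, ERα among them, in the form that binds hormone. Hspd1 and Hspe1 are the chamber and the lid of the mitochondrial chaperonin. Hspb1 is a small heat-shock protein that binds unfolded proteins without ATP. Many of these genes are activated by heat-shock factor 1 (HSF1), which binds heat-shock elements made of inverted repeats of GAA, and E2 has long been known to raise HSP70 and HSP90 in the uterus.

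Heat-shock elements were looked for in RefSeq promoter sequence of build GRCm38.p6, 250 bases before to 50 after each start, which was at hand for 7 of the 10 genes. The element of 3 units was searched as GAA, TTC and GAA, or TTC, GAA and TTC, with any 2 bases between neighbouring units, and the shorter ones as GAANNTTC or TTCNNGAA, which the longer ones contain. All read the same on both strands or were searched on both. Of 27025 promoters, 143 (0.529%) held a 3-unit element, 2149 (7.95%) GAANNTTC and 2269 (8.40%) TTCNNGAA. The sequences below are shown because they hold the matches, in capitals, of the genes that the results turn on. A match describes the letters and is no measurement of binding.
Hspe1 to Hspd1, chr1:55087933-55088147, plus strand: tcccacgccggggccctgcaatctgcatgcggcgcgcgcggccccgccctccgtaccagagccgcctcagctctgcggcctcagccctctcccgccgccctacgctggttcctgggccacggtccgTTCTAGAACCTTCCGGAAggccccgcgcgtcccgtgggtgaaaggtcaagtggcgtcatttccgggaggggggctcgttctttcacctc
Hsph1, chr5:149636287-149636316, minus strand: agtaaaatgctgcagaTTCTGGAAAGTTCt
Hspa1a, chr17:34972157-34972406, minus strand: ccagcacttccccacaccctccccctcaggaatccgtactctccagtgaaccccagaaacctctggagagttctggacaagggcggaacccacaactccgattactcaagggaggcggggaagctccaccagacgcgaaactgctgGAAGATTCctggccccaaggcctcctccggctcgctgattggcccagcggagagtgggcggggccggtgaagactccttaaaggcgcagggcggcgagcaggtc
Hspb1, chr5:135887669-135887918, plus strand: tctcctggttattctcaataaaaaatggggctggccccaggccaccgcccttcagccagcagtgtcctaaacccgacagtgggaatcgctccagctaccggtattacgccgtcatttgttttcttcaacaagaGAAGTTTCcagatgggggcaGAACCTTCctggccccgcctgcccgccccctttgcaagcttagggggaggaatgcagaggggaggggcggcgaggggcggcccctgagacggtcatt

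Hspe1 and Hspd1 are transcribed in opposite directions, and the first sequence is the whole stretch between the Hspe1 start and the nearer Hspd1 start, 216 bases away. Its capitals are a pair of overlapping 3-unit elements, from 89 to 77 and from 84 to 72 bases before the Hspe1 start. They lie upstream of that start and of the nearer Hspd1 start. A further Hspd1 start at position 55088243 lies inside Hspe1, and the elements are downstream of it. The 250 bases before that further start held no heat-shock element match. Hsph1 held a 3-unit element 36 to 48 bases after its start at 149636336, shown above, and TTCTCGAA 33 to 26 bases before that start. From a second Hsph1 start at 149636315 they lie 15 to 27 bases after and 54 to 47 bases before. Hspa1a and Hspa1b each held GAAGATTC 104 to 97 bases before the start, and their 250 upstream bases differed at 3 positions (98.8% identical). Hspb1 held GAAGTTTC and GAACCTTC, at 117 to 110 and 97 to 90 bases before the start. No match lay in the Dnajb1 window. The oestrogen response element, GGTCA and TGACC with any 3 bases between, was present in 18 of the 27025 promoters (0.0666%) and in none of the 7 windows.

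The genes lie on 6 chromosomes in GRCm38.p6. Hsph1 is at chr5:149616843-149636498 and Hspb1 at chr5:135887919-135889563. Hspd1 (chr1:55077833-55088243) and Hspe1 (chr1:55088148-55091317) are neighbours. Hspa1a (chr17:34969359-34972156) and Hspa1b (chr17:34956429-34959238) are close copies on chromosome 17. Hsp90ab1 (chr17:45567778-45573261), which is no copy of them, lies further along that chromosome. Hsp90aa1 is at chr12:110691036-110696395, Hspa8 at chr9:40801276-40805202 and Dnajb1 at chr8:83608175-83612653. Copies of a gene elsewhere bear on some of these measurements. The probe set that the rule picked for Hspa8 lies on chromosome 6, away from the gene, with a mean of 19.35 in log2 intensity, and 30 of its 68 values were within 0.5 of the scale's ceiling of 19.93. The probe set at the gene itself on chromosome 9, which also carries the symbols of 3 small nucleolar RNAs (Snord14c, Snord14d and Snord14e), had a mean of 13.48, and its values are given beside the others. Hspa1a and Hspa1b may likewise share signal. Hsp90aa1 was also named on probe sets that it shares with Gm5844 on chromosome 3 and with Gm12346 on chromosome 11. Their means were 14.34 and 15.43, against 14.90 on its own probe set.

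Values are the deposited log2 intensities, differences are in log2 with their standard error (SE), and levels are compared only within a mouse set and within a gene. Rose and fell are used where limma's adjusted p over all 30142 genes was under 0.05, two-sided. The 95th percentile of 23 control probe sets without a mouse target was 6.12 to 6.89 on the C57Bl6 arrays, 4.99 to 5.92 in the Ex3aERKO set and 5.32 to 6.22 in the ERaUtcKO set. Every gene was above it on all 68 arrays, except Hspa1a on 67. Esr1 group means were 9.68 to 10.19 in Ex3aERKO against 11.49 to 12.58 in its littermates, and 10.40 to 11.02 in ERaUtcKO against 11.80 to 12.31. Defining markers of epithelium, stroma, smooth muscle and endothelium were above background on nearly all arrays (Foxa2 on 60 of 68). In whole uterus, a change in the number of cells of a type and a change in RNA per cell cannot be told apart.

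**Figure D1:**
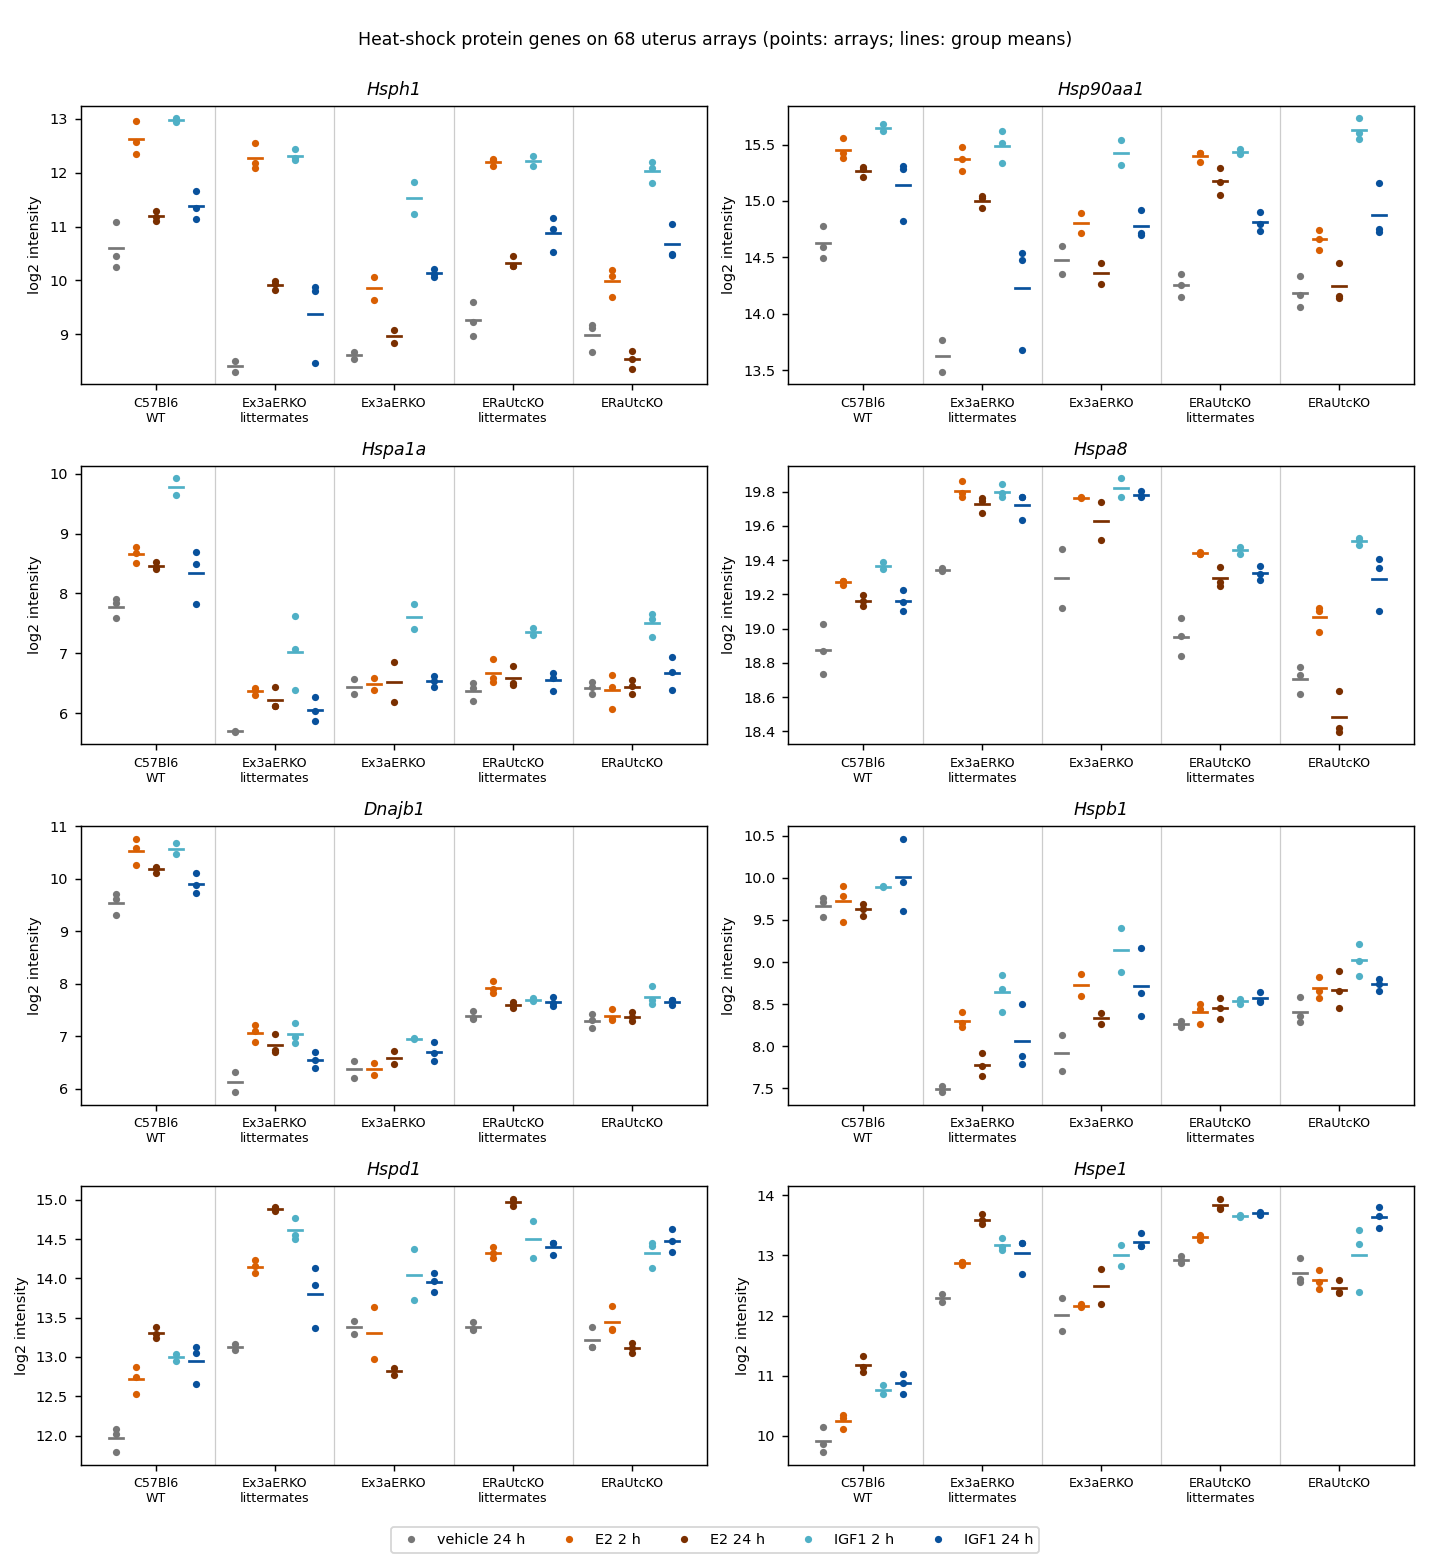
Log2 intensity of the 8 measured heat-shock protein genes on each of the 68 arrays, by mouse set and genotype (horizontal axis) and treatment (colour), with lines at group means and a separate vertical scale per gene. The IGF1 2 h arrays of Hsph1 lie between 11.23 and 13.01 in all 5 genotype groups, while its E2 2 h arrays lie between 9.64 and 10.20 in the knockouts and between 12.09 and 12.96 in the wild types.

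In wild-type uterus all 8 measured genes rose within 2 h of either hormone. Over the 3 sets together, 8 of 8 rose after E2 at 2 h, where 17.2% of all genes did, and 8 of 8 rose after IGF1 at 2 h, where 16.9% did. At 24 h, 7 of 8 rose after E2, against 24.5% of all genes, and 8 of 8 after IGF1, against 19.3%. The median difference over the 8 genes was 0.71, 0.72, 1.02 and 0.45 in that order (E2 2 h, E2 24 h, IGF1 2 h and IGF1 24 h), while the median over all genes was -0.05, -0.07, -0.04 and -0.06. Centring each array on its median left all of these calls, while the share of all called genes that were higher went from 43.1% to 60.2%, from 43.7% to 56.5%, from 47.1% to 63.4% and from 47.2% to 60.9%. Leaving out replicate 1 or 2 took the 8 calls at IGF1 24 h to 6 or 5.

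Hsph1, the HSP110 that exchanges the nucleotide of HSP70, had the largest rise of the 8 at 2 h of both hormones, while at 24 h of E2 Hspd1 and Hspe1 rose further. In C57Bl6 wild types it read 11.08, 10.24 and 10.46 under vehicle, 12.96, 12.57 and 12.34 at 2 h of E2, and 12.95 and 13.01 at 2 h of IGF1. At 24 h it read 11.18, 11.10 and 11.29 after E2 and 11.13, 11.66 and 11.34 after IGF1. Every 2 h array was thus above every 24 h array, and every 24 h array above every vehicle array. Vehicle arrays of the Ex3aERKO littermates read 8.51 and 8.31, and the 2 h arrays reached 12.55, 12.18 and 12.09 after E2 and 12.27, 12.43 and 12.23 after IGF1. The 24 h arrays lay between, at 9.82, 9.99 and 9.93 after E2 and at 9.81, 8.47 and 9.88 after IGF1, 1 of which was within the vehicle range. The littermates of ERaUtcKO mice read 9.60, 8.97 and 9.23 under vehicle, 12.23, 12.26 and 12.13 at 2 h of E2 and 12.12 and 12.31 at 2 h of IGF1. Their 24 h values, 10.28, 10.27 and 10.45 after E2 and 10.96, 10.53 and 11.15 after IGF1, were again intermediate. Over the 3 sets Hsph1 rose by 2.89 ± 0.21 at 2 h of E2 (7.42-fold, adjusted p = 9.15e-15, 9 against 8 arrays) and by 3.08 ± 0.23 at 2 h of IGF1 (8.47-fold, adjusted p = 2.89e-14, 7 against 8 arrays). The rises at 24 h were 1.00 ± 0.21 after E2 (adjusted p = 0.000101) and 1.07 ± 0.21 after IGF1 (adjusted p = 7.92e-05). By set the 2 h rise after E2 was 2.03, 3.87 and 2.94, and that after IGF1 2.38, 3.91 and 2.95, each passing the test on its own.

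Hspa1a, the stress-inducible HSP70, rose more after IGF1 than after E2 at 2 h. In C57Bl6 mice the vehicle arrays read 7.91, 7.84 and 7.58, those at 2 h of E2 8.67, 8.51 and 8.78, and those at 2 h of IGF1 9.64 and 9.92. The 3 ranges did not overlap. The Ex3aERKO littermates read 5.69 and 5.71, then 6.39, 6.42 and 6.30, then 7.06, 7.63 and 6.39, with the vehicle values within the range of the control limit of that set. Those of ERaUtcKO mice read 6.50, 6.42 and 6.20, then 6.91, 6.52 and 6.59, then 7.30 and 7.42, so that in this set the E2 arrays lay just above the highest vehicle array. Over the 3 sets Hspa1a rose by 0.62 ± 0.12 after E2 at 2 h (1.53-fold, adjusted p = 7.33e-05) and by 1.42 ± 0.13 after IGF1 (2.68-fold, adjusted p = 1.61e-11). At 24 h the rise was 0.47 ± 0.12 after E2 (adjusted p = 0.00135) and 0.36 ± 0.12 after IGF1 (adjusted p = 0.0187), the latter not passing without replicate 1 (0.33) or without replicate 2 (0.34). By set, the Hspa1a difference at 2 h of E2 was 0.87 in C57Bl6, 0.68 in littermates of Ex3aERKO and 0.30 in littermates of ERaUtcKO. It passed only in C57Bl6, as did both differences at 24 h, while that at 2 h of IGF1 passed in each set. The probe set shared by Hspa1b and Hspa1a rose by 0.55 ± 0.11 and 1.30 ± 0.12 at 2 h of E2 and IGF1 (adjusted p = 9.68e-05 and 1.67e-11), and by 0.84 ± 0.11 and 0.53 ± 0.11 at 24 h (adjusted p = 4.37e-08 and 0.000255). Unlike the Hspa1a probe set, it was lower at 2 h than at 24 h of E2, by 0.29 ± 0.11 (adjusted p = 0.0259).

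Hspa8, the HSP70 made in unstressed cells, rose at both times after both hormones. On the bright chromosome 6 probe set the wild-type differences were 0.45 ± 0.04 and 0.33 ± 0.04 for E2 at 2 h and 24 h and 0.48 ± 0.04 and 0.34 ± 0.04 for IGF1 (adjusted p from 3.12e-13 to 9.97e-10). On the probe set at the gene on chromosome 9 they were 1.21 ± 0.11, 0.61 ± 0.11, 1.15 ± 0.11 and 0.58 ± 0.11 (adjusted p from 1.26e-12 to 2.58e-05). The directions were the same and the differences larger on the chromosome 9 probe set. The 2 probe sets differ in locus and annotated symbols as well as in level, and the part of each in this was not tested. In the littermates of Ex3aERKO mice, for example, the chromosome 9 probe set read 11.84 and 12.06 under vehicle and 13.60, 13.81 and 13.63 at 2 h of E2, while the chromosome 6 probe set read 19.34 and 19.35, then 19.77, 19.86 and 19.79.

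**Figure D2:**
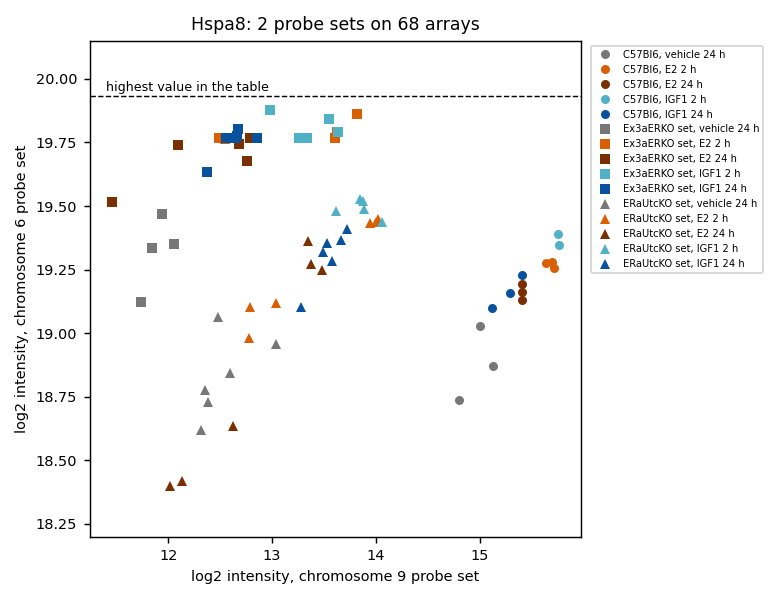
Log2 intensity of Hspa8 on each of the 68 arrays, with the chromosome 9 probe set at the gene on the horizontal axis and the chromosome 6 probe set chosen by the rule on the vertical axis, by mouse set (marker shape) and treatment (colour), and a dashed line at the highest value in the table. Arrays of the Ex3aERKO set (squares, both genotypes) lie between 19.12 and 19.88 on the vertical axis while they spread from 11.46 to 13.81 on the horizontal axis.

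Hsp90aa1, the stress-inducible cytosolic HSP90, rose in every wild-type set at 2 h. C57Bl6 mice read 14.78, 14.50 and 14.59 under vehicle, 15.43, 15.56 and 15.38 at 2 h of E2, 15.30, 15.21 and 15.29 at 24 h of E2, 15.62 and 15.68 at 2 h of IGF1, and 14.82, 15.28 and 15.31 at 24 h of IGF1. All treated arrays of this set exceeded all its vehicle arrays. In the littermates of Ex3aERKO mice vehicle arrays read 13.77 and 13.49, against 15.37, 15.48 and 15.26 at 2 h of E2 and 15.34, 15.62 and 15.51 at 2 h of IGF1. At 24 h they read 14.94, 15.03 and 15.04 after E2, and 14.54, 13.68 and 14.48 after IGF1, where the IGF1 arrays overlapped vehicle. In the littermates of ERaUtcKO mice vehicle arrays read 14.26, 14.15 and 14.35, against 15.42, 15.35 and 15.43, and 15.41 and 15.46. The IGF1 arrays at 2 h were above those of E2 in C57Bl6 and overlapped them in both littermate sets. The pooled rise was 1.21 ± 0.11 after E2 at 2 h (2.31-fold, adjusted p = 6.72e-12) and 1.35 ± 0.12 after IGF1 (2.55-fold, adjusted p = 4e-12). At 24 h it was 0.94 ± 0.11 after E2 (adjusted p = 2.29e-09) and 0.52 ± 0.11 after IGF1 (adjusted p = 0.000232).

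Dnajb1, the J-domain partner of HSP70 in the heat-shock response, rose by 0.81 ± 0.09 after E2 at 2 h (1.76-fold, adjusted p = 5.06e-10) and by 0.75 ± 0.10 after IGF1 (1.68-fold, adjusted p = 2.64e-08). Its C57Bl6 arrays read 9.61, 9.30 and 9.71 under vehicle, 10.77, 10.26 and 10.60 at 2 h of E2, and 10.68 and 10.48 at 2 h of IGF1. The step was smaller in the littermates of ERaUtcKO mice, from 7.34, 7.35 and 7.48 to 7.90, 7.83 and 8.06 after E2 and to 7.67 and 7.72 after IGF1. Treated and vehicle arrays did not overlap in either set. At 24 h Dnajb1 was 0.50 ± 0.09 above vehicle after E2 (adjusted p = 7.47e-06) and 0.33 ± 0.09 after IGF1 (adjusted p = 0.00264). The last of these was 0.23 and did not pass without replicate 2.

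Hspb1, the small heat-shock protein, had the smallest difference of the 8 after E2, at 2 h and at 24 h, which did not hold after IGF1. After IGF1 at 2 h it rose by 0.56 ± 0.12 (1.47-fold, adjusted p = 0.000305) and at 24 h by 0.37 ± 0.12 (adjusted p = 0.01). After E2 it rose by 0.30 ± 0.12 at 2 h (adjusted p = 0.0358), and at 24 h the difference was 0.11 ± 0.12 (95% interval -0.13 to 0.34, adjusted p = 0.445). The call for E2 at 2 h was lost on leaving out any 1 replicate number (0.27 to 0.31), and that for IGF1 at 24 h without replicate 1 (0.36) or 2 (0.28). The littermates of Ex3aERKO mice went from 7.53 and 7.46 under vehicle to 8.27, 8.41 and 8.23 at 2 h of E2 and 8.85, 8.68 and 8.41 at 2 h of IGF1. The C57Bl6 arrays overlapped, at 9.76, 9.53 and 9.71 under vehicle and 9.91, 9.47 and 9.78 at 2 h of E2. By set, the 2 h difference after E2 was 0.05 in C57Bl6, 0.81 in littermates of Ex3aERKO and 0.14 in littermates of ERaUtcKO, and passed only in the second. That after IGF1 was 0.23, 1.15 and 0.27, and again passed only in the second. Whether the sets differ in this was not tested.

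Hspd1 and Hspe1, which together form the mitochondrial chaperonin, had their highest values 24 h after E2. In C57Bl6 mice Hspd1 read 12.08, 12.02 and 11.79 under vehicle, 12.74, 12.87 and 12.53 at 2 h of E2 and 13.29, 13.25 and 13.38 at 24 h of E2. In the littermates of Ex3aERKO mice it went from 13.16 and 13.09 through 14.15, 14.23 and 14.06 to 14.91, 14.90 and 14.86, and in those of ERaUtcKO mice from 13.35, 13.34 and 13.44 through 14.26, 14.40 and 14.33 to 14.97, 14.92 and 15.01. The 3 ranges were apart in each set. Over the sets Hspd1 was 0.90 ± 0.10 above vehicle at 2 h of E2 (1.86-fold, adjusted p = 2.86e-10) and 1.55 ± 0.10 at 24 h (2.94-fold, adjusted p = 6.27e-17). Hspe1 was 0.43 ± 0.07 above it at 2 h (adjusted p = 6.14e-06) and 1.15 ± 0.07 at 24 h (2.22-fold, adjusted p = 1.59e-16). In C57Bl6 mice Hspe1 read 9.86, 9.73 and 10.15 under vehicle, 10.35, 10.30 and 10.11 at 2 h of E2, which overlapped vehicle, and 11.15, 11.33 and 11.06 at 24 h, which did not. After IGF1 Hspd1 was 1.23 ± 0.10 above vehicle at 2 h (2.35-fold, adjusted p = 9.77e-13) and 0.88 ± 0.10 at 24 h (adjusted p = 1.3e-09). Hspe1 was 0.81 ± 0.08 above it at 2 h and 0.82 ± 0.07 at 24 h (adjusted p = 4.19e-11 and 1.74e-11).

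**Figure D3:**
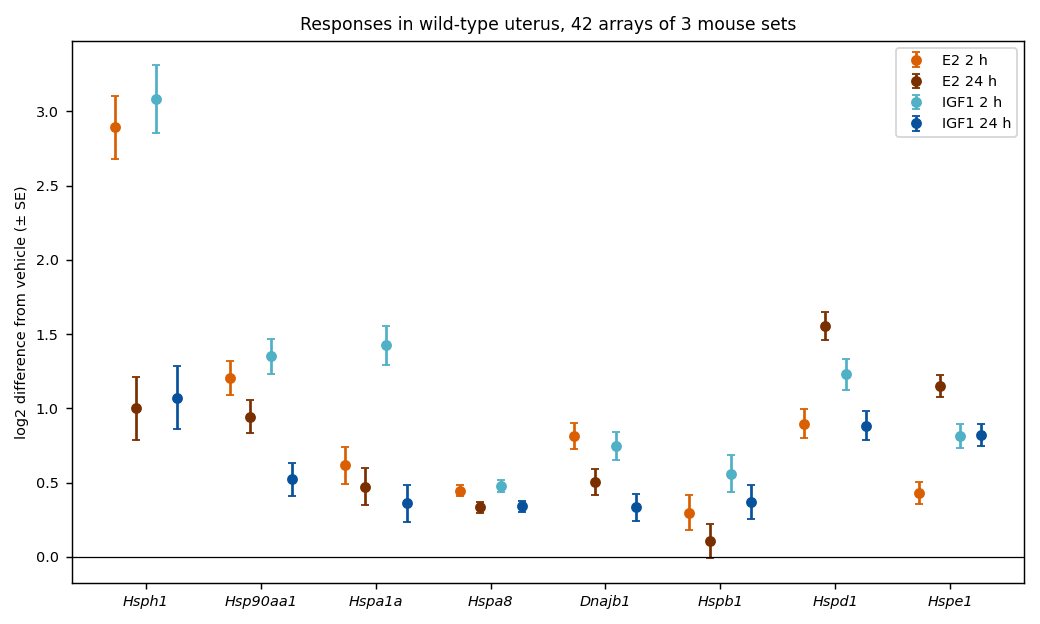
Difference from vehicle (log2, vertical axis, with SE) of each gene in the 42 wild-type arrays of the 3 mouse sets, by treatment. Hsph1 has the highest points, at 2.89 for E2 2 h and 3.08 for IGF1 2 h, and Hspd1 and Hspe1 are the only genes of the 8 whose E2 24 h point is the highest of the 4.

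Set against each other, the hormones differed in a part of the genes at 2 h. At that time 3 of 8 genes were lower after E2 than after IGF1, where 12.4% of all genes were. They were Hspa1a (-0.81 ± 0.13, adjusted p = 3.89e-06), Hspe1 (-0.38 ± 0.08, adjusted p = 0.00013) and Hspd1 (-0.33 ± 0.10, adjusted p = 0.0117, and -0.27 without replicate 3, where it did not pass). For Hsph1 the difference was -0.19 (95% interval -0.64 to 0.25), for Hsp90aa1 -0.15 (-0.38 to 0.09), for Dnajb1 0.07 (-0.12 to 0.26), for Hspb1 -0.26 (-0.50 to -0.02, adjusted p = 0.13) and for Hspa8 -0.03 (-0.11 to 0.05). None of these passed, and the intervals leave room for differences up to their ends. At 24 h the order was turned for the chaperonin pair. Hspd1 was 0.67 ± 0.09 higher after E2 than after IGF1 (adjusted p = 3.25e-07), Hspe1 0.34 ± 0.07 (adjusted p = 0.000309) and Hsp90aa1 0.42 ± 0.11 (adjusted p = 0.00248). These 3 of 8 compare with 15.3% of all genes higher after E2.

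The 2 times differed by gene. After E2, 4 of 8 genes were higher at 2 h than at 24 h (24.1% of all genes), namely Hsph1 by 1.89 ± 0.21 (adjusted p = 2.24e-10), Dnajb1 by 0.31 ± 0.09, Hsp90aa1 by 0.26 ± 0.11 and Hspa8 by 0.11 ± 0.04. Hspd1 and Hspe1, 2 of 8, were lower at 2 h than at 24 h (27.1% of all genes), by 0.66 ± 0.09 and 0.73 ± 0.07 (adjusted p = 1.16e-07 and 2.02e-11). Hsp90aa1 did not pass without any 1 replicate number (0.23 to 0.32), Hspa8 without replicate 2 (0.09) or 3 (0.12), and Dnajb1 without replicate 3 (0.26). After IGF1, 6 of 8 were higher at 2 h than at 24 h (15.2% of all genes), among them Hsph1 by 2.01 ± 0.22 (adjusted p = 8.74e-10), Hspa1a by 1.06 ± 0.13 (adjusted p = 1.01e-08) and Hsp90aa1 by 0.83 ± 0.12 (adjusted p = 1.87e-07). Hspd1 was 0.35 ± 0.10 higher at 2 h (adjusted p = 0.00529), the opposite of its order after E2. By set this was 0.05 in C57Bl6, 0.80 in littermates of Ex3aERKO and 0.10 in those of ERaUtcKO. It passed only in the littermates of Ex3aERKO, and in the other sets the 2 h and 24 h arrays overlapped. Hspe1 differed by -0.01 (95% interval -0.16 to 0.15). Without replicate 2, Hspd1 (0.20) and Hspa8 (0.13) did not pass in that comparison.

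**Figure D4:**
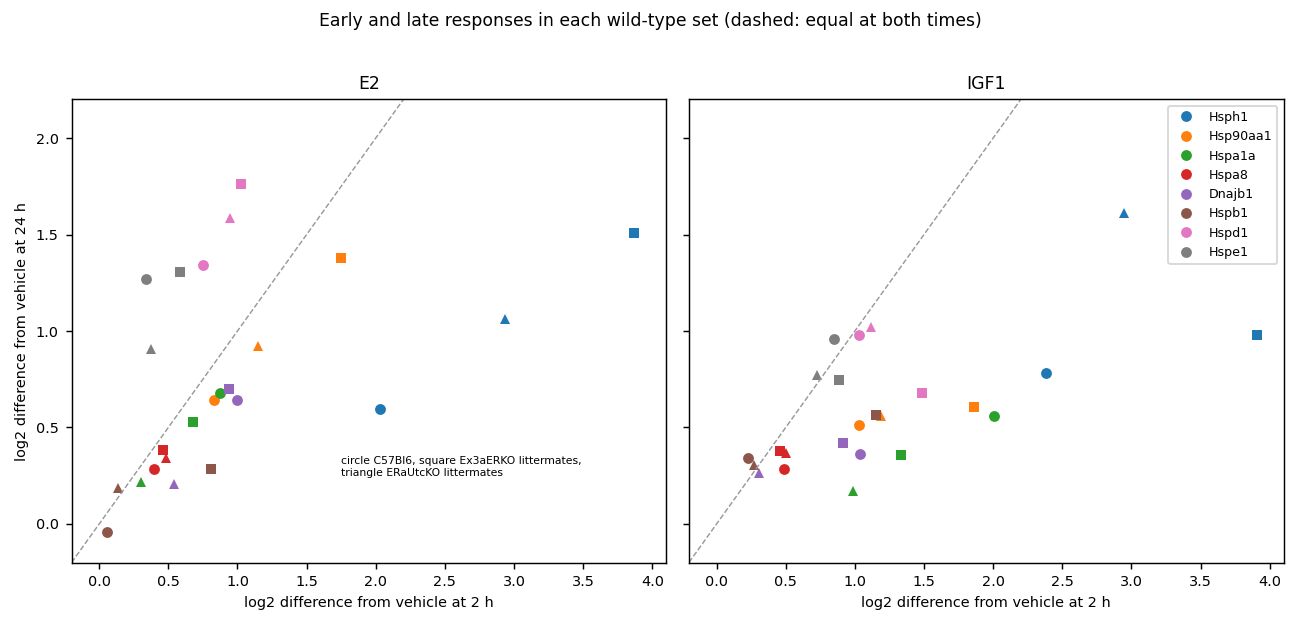
Difference from vehicle at 2 h (horizontal axis, log2) and at 24 h (vertical axis, log2) for each gene (colour) in each wild-type set (marker shape), for E2 and for IGF1, with a dashed line where both are equal. For E2 the Hspd1 and Hspe1 points lie above the line in each of the 3 sets and the Hsph1 points far below it.

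In Ex3aERKO under vehicle 1 of 8 genes was higher than in littermates, where 1.56% of all genes were, and 2 were higher at an unadjusted p under 0.05. The gene called was Hsp90aa1, which read 14.35 and 14.60 against 13.77 and 13.49, a difference of 0.85 ± 0.21 (adjusted p = 0.0278, 2 against 2 arrays). It did not pass without replicate 1 (0.85) or without replicate 3 (0.59). Hspa1a read 6.56 and 6.32 against 5.69 and 5.71, which did not overlap but did not pass (0.74 ± 0.27, adjusted p = 0.191). The probe set shared by Hspa1b and Hspa1a read 7.30 and 7.23 against 6.43 and 6.47 (0.82 ± 0.23, adjusted p = 0.0668). In ERaUtcKO 0 of 8 were called (2.01% of all genes were higher, and centring moved the share of called genes that were higher from 48.3% to 63.7%, and quantile normalization to 58.4%). At an unadjusted p under 0.05, 1 of the 8 was lower there. The smallest adjusted p belonged to Hspa8, at -0.25 (adjusted p = 0.0894). Epithelial markers differed beside this, 7 of 11 being higher in Ex3aERKO under vehicle than in littermates and none lower. Their mean level was 10.37 to 10.50 against 9.29 to 9.53, and their part in the Hsp90aa1 value was not tested.

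After E2 at 2 h the rise of Hsph1, Hsp90aa1, Hspd1 and Dnajb1 was smaller in both knockout lines than in their littermates. In Ex3aERKO 4 of 8 genes passed the test of this difference downwards, where 4.85% of all genes did, and in ERaUtcKO the same 4 of 8 did, where 7.08% of all genes did. Hsph1 went from 8.68 and 8.55 under vehicle to 10.07 and 9.64 in Ex3aERKO, below all 3 E2 arrays of its littermates, and from 9.12, 8.68 and 9.18 to 10.20, 9.70 and 10.09 in ERaUtcKO. The knockout response minus that of littermates was -2.63 ± 0.43 in Ex3aERKO (adjusted p = 0.000511) and -1.93 ± 0.26 in ERaUtcKO (adjusted p = 1.39e-05). For Hsp90aa1 it was -1.42 ± 0.28 (adjusted p = 0.00246) and -0.68 ± 0.15 (adjusted p = 0.00329), for Hspd1 -1.10 ± 0.30 (adjusted p = 0.0269) and -0.71 ± 0.16 (adjusted p = 0.00332), and for Dnajb1 -0.94 ± 0.24 (adjusted p = 0.0176) and -0.44 ± 0.13 (adjusted p = 0.0221). The vehicle difference of 0.85 in Hsp90aa1, between 2 and 2 arrays, enters its value in Ex3aERKO. At 2 h of E2 itself the Hsp90aa1 mean was 14.80 in Ex3aERKO against 15.37 in littermates. The median difference of the responses over the 8 genes was -0.79 in Ex3aERKO and -0.47 in ERaUtcKO, beside -0.03 and 0.07 over all genes. Centring the arrays took the share of all calls that were higher in ERaUtcKO from 48.6% to 31.9%.

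The other 4 genes did not pass in that test. At an unadjusted p under 0.05, 4 of the 8 were lower in Ex3aERKO and 5 in ERaUtcKO, Hspe1 being among the latter. For Hspb1 the difference of the responses was 0.00 in Ex3aERKO (95% interval -0.71 to 0.71) and 0.14 in ERaUtcKO (-0.18 to 0.46). Hspb1 read 8.86 and 8.60 at 2 h of E2 in Ex3aERKO against 7.70 and 8.13 under vehicle, which did not overlap but did not pass (0.81 ± 0.25, adjusted p = 0.343). For Hspa1a the difference was -0.63 (-1.41 to 0.15) and -0.35, and for Hspe1 -0.44 (-1.002 to 0.13) and -0.49. For Hspa8 it was 0.01 (-0.30 to 0.31) in Ex3aERKO on the chromosome 6 probe set, whose values lie near the ceiling there. The chromosome 9 probe set gave -1.05 ± 0.24 (adjusted p = 0.00752) in Ex3aERKO and -0.77 ± 0.21 (adjusted p = 0.0127) in ERaUtcKO.

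These calls rest on few arrays. Leaving out replicate 3 of every group left 0 of the 4 calls in Ex3aERKO, with Hsph1 at -2.47, Hsp90aa1 at -1.12, Hspd1 at -0.69 and Dnajb1 at -1.07. Without replicate 2, Hspd1 (-1.17) and Dnajb1 (-0.84) did not pass there, and without replicate 1 Dnajb1 (-0.91). In ERaUtcKO, Hsp90aa1 (-0.72) and Dnajb1 (-0.48) did not pass without replicate 1, and Hsp90aa1 (-0.67), Hspd1 (-0.52) and Dnajb1 (-0.43) without replicate 2. Hsph1 passed in ERaUtcKO in all 3 cases. These values kept their sign and, apart from Hspd1 in Ex3aERKO, moved by less than 1.5 times.

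Stromal markers moved with the E2 response at 2 h. In wild types 10 of the 11 stromal markers measured fell at 2 h of E2 and 1 rose (median -1.37), and in the littermates of Ex3aERKO their mean level went from 11.39 to 11.55 under vehicle down to 9.89 to 10.03. In Ex3aERKO it was 10.71 to 11.06 under vehicle and 10.70 to 10.75 at 2 h of E2. At 2 h of IGF1, 4 stromal markers rose and 3 fell (median -0.15). Liver transcripts (6 of 7 listed were measured) were high on some vehicle arrays of the C57Bl6 and ERaUtcKO sets, with means of 10.06 to 12.19 in C57Bl6 vehicle mice against 6.94 to 7.12 at 24 h of E2. Some treated arrays had them too, with means of up to 9.84 at 2 h of E2 in C57Bl6 and of 7.86 to 13.86 at 2 h of IGF1 in ERaUtcKO. In the Ex3aERKO set all arrays had means of 5.17 to 5.55 for them, and there Hsph1 rose by 3.87 and 3.91 at 2 h of E2 and of IGF1 in littermates. The part of stromal cells and of liver transcripts in these values was not tested.

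A part of the early E2 response was still measured in ERaUtcKO. There 3 of 8 genes rose at 2 h of E2, where 0.398% of all genes did and 81.1% of all called genes were higher (70.4% with quantile normalization). Hsph1 rose by 1.00 ± 0.18 (adjusted p = 0.00959), Hsp90aa1 by 0.47 ± 0.11 (adjusted p = 0.0488) and Hspa8 by 0.36 ± 0.08 (adjusted p = 0.041). The Hspa8 call was made on the chromosome 6 probe set. On the chromosome 9 probe set its difference was 0.52, with the arrays above vehicle, and did not pass. Hsp90aa1 read 14.17, 14.06 and 14.34 under vehicle and 14.74, 14.57 and 14.67 after E2, and the arrays of all 3 genes were apart from vehicle. None of the 3 calls held on leaving out any 1 replicate number, although the values ranged only from 0.97 to 1.05, from 0.42 to 0.54 and from 0.35 to 0.38. In Ex3aERKO 0 of 8 genes were called at 2 h of E2, where 0.116% of all genes rose, and 3 were higher at an unadjusted p under 0.05. Hsph1 was among these with 1.24 ± 0.32 (adjusted p = 0.187), both E2 arrays being above both vehicle arrays. In a fit of all 68 arrays together, 3 of 8 were called there, and the share of 0.116% does not belong to that fit.

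At 24 h of E2 the chaperonin pair and Hsp90aa1 differed between knockouts and littermates in both lines. In Ex3aERKO 3 of 8 genes passed downwards (10.5% of all genes), and in ERaUtcKO 5 of 8 (15.5% of all genes). Hspd1 had the largest difference. It read 12.77 and 12.86 in Ex3aERKO against 13.29 and 13.46 under vehicle, and 13.11, 13.05 and 13.18 in ERaUtcKO against 13.13, 13.38 and 13.12, while all wild-type littermates had gone up. The difference of the responses was -2.32 ± 0.30 in Ex3aERKO (adjusted p = 5.35e-05) and -1.68 ± 0.16 in ERaUtcKO (adjusted p = 5.05e-08). For Hsp90aa1 it was -1.49 ± 0.28 (adjusted p = 0.00112) and -0.86 ± 0.15 (adjusted p = 0.000142), and for Hspe1 -0.84 ± 0.27 (adjusted p = 0.039) and -1.16 ± 0.23 (adjusted p = 0.00059). Hsph1 (-1.52 ± 0.26, adjusted p = 0.000101) and Hspa8 (-0.56 ± 0.11, adjusted p = 0.000592) passed in ERaUtcKO as well. The Hsp90aa1 value in Ex3aERKO again includes its vehicle difference of 0.85. At 24 h of E2 itself the Hsp90aa1 mean was 14.36 in Ex3aERKO against 15.00 in littermates. On the chromosome 9 probe set the Hspa8 response was -0.06 in Ex3aERKO and 0.79 in its littermates. In ERaUtcKO it was -0.09 on that probe set, and 0.70 in its littermates. The chromosome 6 probe set, near the ceiling, gave 0.33 in Ex3aERKO and 0.38 in its littermates. Hsph1 in Ex3aERKO was at -1.16 ± 0.43 (adjusted p = 0.0723).

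Without replicate 3, Hspd1 alone of the 3 genes passed in Ex3aERKO, with Hsp90aa1 at -1.30 and Hspe1 at -0.35. Without replicate 2, Hsph1 passed there too, at -1.16. In ERaUtcKO Hspa8 did not pass without replicate 1 (-0.42). The median over the 8 genes was -0.66 in Ex3aERKO and -0.71 in ERaUtcKO, beside 0.10 and 0.13 over all genes, and centring the arrays took the share of all calls that were higher from 37.7% to 24.2% and from 52.7% to 34.3%. In the knockouts themselves 0 of 8 genes were called at 24 h of E2 in either line, and 0% of all genes rose in Ex3aERKO and 0% in ERaUtcKO. At an unadjusted p under 0.05, 2 genes were higher and 1 lower in Ex3aERKO, and 1 was higher and 2 lower in ERaUtcKO. Hsph1 in ERaUtcKO read 8.36, 8.55 and 8.70 at 24 h of E2 against 9.12, 8.68 and 9.18 under vehicle.

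Epithelial markers moved with the 24 h response. In wild types 10 of the 11 measured rose at 24 h of E2 and none fell (median 1.93), and 7 in Ex3aERKO and 8 in ERaUtcKO passed downwards in the difference of the responses. Their mean level in littermates of ERaUtcKO went from 9.31 to 9.74 under vehicle up to 11.51 to 11.66, and in ERaUtcKO from 9.64 to 10.05 to 10.09 to 10.33. Smooth muscle markers rose too, 7 of 10 at 24 h of E2 and 10 of 10 at 24 h of IGF1 (medians 0.88 and 0.96). The part of these cells in the Hspd1 and Hspe1 values was not tested.

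After IGF1 at 2 h the heat-shock genes rose in both knockout lines. In ERaUtcKO 7 of 8 rose, where 13.1% of all genes did, and in Ex3aERKO 7 of 8, where 8.61% did. In ERaUtcKO Hsph1 went from 9.12, 8.68 and 9.18 to 12.20, 12.08 and 11.82, a rise of 3.04 ± 0.18 (8.22-fold, adjusted p = 1.49e-11). In Ex3aERKO it went from 8.68 and 8.55 to 11.82 and 11.23, a rise of 2.91 ± 0.32 (7.52-fold, adjusted p = 4.84e-06). The IGF1 arrays of both lines were above every E2 array of the same line. Hsp90aa1 rose by 1.44 ± 0.11 in ERaUtcKO (adjusted p = 3.91e-10) and by 0.95 ± 0.21 in Ex3aERKO (adjusted p = 0.00312), and Hspa1a by 1.07 ± 0.15 (adjusted p = 5.29e-06) and 1.17 ± 0.27 (adjusted p = 0.00569). Hspb1 rose by 0.61 ± 0.11 (adjusted p = 0.000121) and 1.23 ± 0.25 (adjusted p = 0.00196), and Dnajb1 by 0.46 ± 0.09 (adjusted p = 0.000399) and 0.58 ± 0.18 (adjusted p = 0.0325). Hspa8 rose by 0.80 ± 0.08 and 0.53 ± 0.11 on the chromosome 6 probe set and by 1.52 ± 0.15 and 1.28 ± 0.18 on that of chromosome 9. In ERaUtcKO liver transcripts had means of 8.55 to 11.94 under vehicle and 7.86 to 13.86 at 2 h of IGF1, and smooth muscle markers means of 13.05 to 13.58 and 14.14 to 14.25. Their part in these rises was not tested.

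The chaperonin pair was less even at that time. Hspd1 rose by 1.12 ± 0.11 in ERaUtcKO (adjusted p = 4.85e-08), while in Ex3aERKO it read 14.37 and 13.72 against 13.29 and 13.46, a difference of 0.67 ± 0.22 that just missed the threshold (adjusted p = 0.05003). Hspe1 rose by 0.99 ± 0.20 in Ex3aERKO (adjusted p = 0.00171). In ERaUtcKO its IGF1 arrays read 13.20, 13.42 and 12.39 against 12.56, 12.60 and 12.95, which overlapped (0.30, adjusted p = 0.202). With replicate 3 left out of every group, which also leaves out the highest vehicle array, the difference was 0.73 and was called. Of the 7 calls in Ex3aERKO, 2 were left without replicate 1, 5 without replicate 2 and 4 without replicate 3. Dnajb1 passed in none of the 3 (0.43 to 0.75), and Hsph1 in all. Hspa8 without replicate 2 was at 0.30, Hspb1 without replicate 1 at 0.97 and Hspe1 without replicate 1 at 0.82. Hsp90aa1 (0.84 and 1.08) and Hspa1a (0.96 and 1.05) did not pass without replicate 1 or 3.

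The response to IGF1 at 2 h was not shown to differ between knockouts and littermates for any of the 8 genes. In Ex3aERKO 0 of 8 passed, as did 0% of all genes, and 3 were lower at an unadjusted p under 0.05. For Hsph1 the difference of the responses was -0.995 (95% interval -1.90 to -0.09, adjusted p = 0.645), for Hsp90aa1 -0.91 (-1.49 to -0.32) and for Hspd1 -0.81 (-1.45 to -0.18). These intervals lie below 0 before adjustment. The vehicle difference of 0.85 in Hsp90aa1, between 2 and 2 arrays, enters each of its differences of responses in Ex3aERKO. At 2 h of IGF1 itself Hsp90aa1 read 15.54 and 15.31 in Ex3aERKO against 15.34, 15.62 and 15.51 in littermates, and the ranges overlapped. In ERaUtcKO 0 of 8 passed, against 0.511% of all genes, and 1 was higher at an unadjusted p under 0.05. The differences were 0.09 for Hsph1 (-0.48 to 0.67), 0.25 for Hsp90aa1 (-0.08 to 0.59), 0.09 for Hspa1a (-0.38 to 0.55), -0.00 for Hspd1 (-0.36 to 0.35) and 0.30 for Hspa8 (0.05 to 0.55).

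At 24 h of IGF1, 4 of 8 genes rose in Ex3aERKO (11.7% of all genes) and 7 of 8 in ERaUtcKO (16.9% of all genes). Hsph1 rose by 1.52 ± 0.29 in Ex3aERKO (10.06, 10.22 and 10.12, adjusted p = 0.00115) and by 1.68 ± 0.18 in ERaUtcKO (10.49, 10.48 and 11.05, adjusted p = 2.84e-07). Hspe1 rose by 1.21 ± 0.18 in Ex3aERKO (adjusted p = 0.000153) and by 0.93 ± 0.17 in ERaUtcKO (adjusted p = 0.000117). The arrays of both genes were above vehicle in both lines. Hspd1 rose by 1.27 ± 0.11 in ERaUtcKO (adjusted p = 1.98e-08), and in Ex3aERKO it stood at 0.58 (adjusted p = 0.057). Hspa1a, at 0.24 in ERaUtcKO (adjusted p = 0.236), was the gene that did not pass there. Without replicate 2, 2 of the 4 calls in Ex3aERKO were lost (Hspa8 at 0.32 and Hspb1 at 0.78), and without replicate 3 likewise 2 (Hsph1 at 1.46 and Hspb1 at 0.79). In ERaUtcKO Dnajb1 (0.32 and 0.35) and Hspb1 (0.23 and 0.34) did not pass without replicate 1 or 2. The responses were not shown to differ from those of littermates, with 0 of 8 called in Ex3aERKO (0.0133% of all genes) and 0 of 8 in ERaUtcKO (0.0498% of all genes), and 0 and 0 at an unadjusted p under 0.05. Centring took the share of all calls that were higher in ERaUtcKO at 24 h of IGF1 from 52.0% to 65.2%. In the test of the difference of the responses it went from 26.7% to 6.25%, and to 10% with quantile normalization. In Ex3aERKO mice at 24 h of IGF1 quantile normalization took it from 63.1% to 48.8%.

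**Figure D5:**
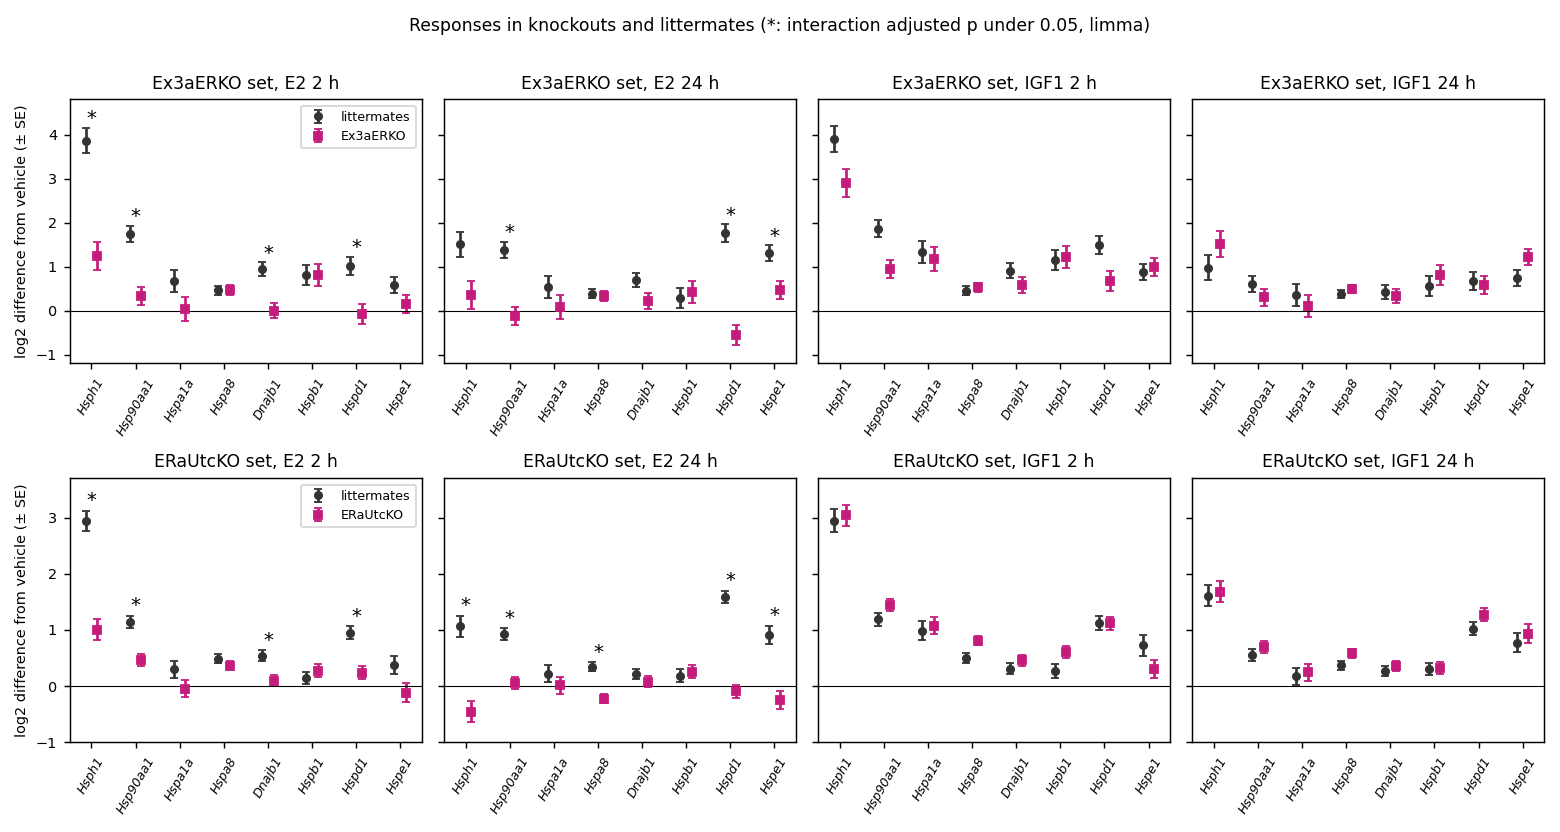
Difference from vehicle (log2, vertical axis, with SE) of each gene in knockouts and in their wild-type littermates, for the Ex3aERKO set (upper panels) and the ERaUtcKO set (lower panels), by hormone and time. Asterisks mark genes whose response differed between genotypes at an adjusted p under 0.05 in limma, which occur in the E2 panels (4 and 3 genes in Ex3aERKO, 4 and 5 in ERaUtcKO) and in none of the 4 IGF1 panels.

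The regulators of the family were measured in part. HSF1 had no probe set of its own, so that 4 of 5 listed factors were measured. Hsf2, a further heat-shock factor, moved in opposite directions at 2 h, falling by 0.22 ± 0.07 after E2 (adjusted p = 0.00498) and rising by 0.45 ± 0.07 after IGF1 (adjusted p = 1.58e-06). Hsbp1, which binds HSF1 and restrains it, rose at 24 h of both hormones, by 0.75 ± 0.08 each. The lists of related genes used here were written with earlier results of these data known, and their counts are descriptions.

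Of all genes, 17.2% rose at 2 h and 24.5% at 24 h of E2 in wild types, and 16.9% and 19.3% after IGF1, which is the background for the lists that follow. Of 13 HSP90 co-chaperones measured, 11 rose at 2 h of E2, 10 at 24 h of E2, 12 at 2 h of IGF1 and 8 at 24 h of IGF1, and none fell. Unc45a, a co-chaperone of myosin folding, rose by 1.97 ± 0.11 at 2 h of E2 (adjusted p = 6.29e-18), and Fkbp4, an immunophilin of steroid receptor complexes, by 1.71 ± 0.14 (adjusted p = 1.15e-13). Stip1, which hands clients from HSP70 to HSP90, rose by 1.88 ± 0.18 at 2 h of IGF1 (adjusted p = 2.02e-11). Of 14 other HSP70s, HSP110s and exchange factors, 10 rose and 1 fell at 2 h of E2 (Hspa12a, by 0.21 ± 0.05), and 9 rose and none fell at 2 h of IGF1. Hspa4l, an HSP110 like Hsph1, rose by 2.74 ± 0.11 at 2 h of E2 (adjusted p = 3.42e-22). Its close relative Hspa4 was the leading gene of that list at 2 h of IGF1, with 1.54 ± 0.10 (adjusted p = 1.10e-15). Of 10 other J-domain proteins 8 rose at 2 h of either hormone, and Dnajb4 fell by 0.22 ± 0.04 after IGF1. The largest rises were those of Dnajc21 (1.25) and Dnaja2 (1.18) at 2 h of E2.

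Of 12 endoplasmic reticulum chaperones measured, 10 rose at 2 h and 11 at 24 h of E2, with a median of 0.68 and then 1.56, while Dnajb9 fell by 0.26 ± 0.10 at both times. Hspa5, the HSP70 of that compartment, rose by 1.77 ± 0.15 at 2 h of E2 and by 1.78 ± 0.16 at 2 h of IGF1, and Calr, a lectin chaperone, by 2.32 ± 0.17 at 24 h of E2. Of 12 subunits of the cytosolic chaperonin TRiC and of prefoldin, 10 rose at each time after E2, with medians of 0.48 and 0.82, and the prefoldin subunit Pfdn5 fell by 0.24 ± 0.08 and 0.37 ± 0.08. Cct2 rose by 0.79 ± 0.10 and 1.67 ± 0.10. Of 9 other mitochondrial chaperones and proteases, 6 rose at 2 h and 5 at 24 h of E2. Hspa9, the mitochondrial HSP70, rose by 1.04 ± 0.12 and 1.07 ± 0.12, and Trap1, the mitochondrial HSP90, by 1.20 ± 0.09 at 24 h, while Hscb, a J-domain protein of iron-sulphur cluster assembly, fell by 0.93 ± 0.14 at 2 h. At 24 h Clpx fell by 0.46 ± 0.06 and Grpel2 by 0.17 ± 0.06. Of 6 other small heat-shock proteins 3 rose and 1 fell at 2 h of E2. Hspb7 rose by 2.62 ± 0.18 and Hspb8 by 1.71 ± 0.14, and Hspb6 fell by 0.29 ± 0.10 (adjusted p = 0.0114).

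In the difference of the E2 responses at 2 h, 5 of 13 HSP90 co-chaperones passed downwards in Ex3aERKO and 6 in ERaUtcKO, and 5 and 6 of 14 other HSP70s, HSP110s and exchange factors, where 4.85% and 7.08% of all genes did. Hspa4l was at -2.35 ± 0.27 and -2.32 ± 0.22 (adjusted p = 1.6e-05 and 7.6e-08). At 24 h of E2, 11 of 12 endoplasmic reticulum chaperones passed downwards in each line (and 1 upwards in ERaUtcKO), as did 8 of 12 TRiC and prefoldin subunits and 5 of 9 other mitochondrial chaperones and proteases, where 10.5% of all genes did in Ex3aERKO and 15.5% in ERaUtcKO. For IGF1, no gene of any of these chaperone lists passed in the difference of the responses, at either time and in either line. Of all genes 0% and 0.511% passed there at 2 h, and 0.0133% and 0.0498% at 24 h, in Ex3aERKO and ERaUtcKO. In ERaUtcKO at 2 h of IGF1, 9 of 13 HSP90 co-chaperones and 11 of 12 endoplasmic reticulum chaperones rose (13.1% of all genes), and in Ex3aERKO 5 and 6 (8.61%). Immediate-early genes, which mark the first hours of a hormone response, are given beside them. Of 14 measured, 13 rose at 2 h of E2 and 10 at 2 h of IGF1 in wild types, and 11 and 13 passed downwards in the difference of the E2 responses at 2 h in Ex3aERKO and ERaUtcKO, while 2 passed upwards in that of the IGF1 responses in ERaUtcKO.

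Likeness over the 25 group means, each taken from its set's mean, is given as a description. The groups share vehicle arrays, sets and hormones, so high values are common. Among the genes, Hsph1 and Hsp90aa1 were most alike (Pearson r = 0.922), followed by Hspd1 and Hspe1 (0.890) and by Hsph1 and Dnajb1 (0.852). Hspb1 was least like the chaperonin pair (0.145 with Hspd1 and 0.105 with Hspe1). The nearest other genes were Top1 (0.979), Chordc1 (0.972) and Exoc5 (0.969) for Hsph1, Becn1 (0.968), Eif5b (0.955) and Arf6 (0.955) for Hsp90aa1, and Orai1 (0.938), Pwwp2b (0.937) and Yars (0.919) for Hspa1a. For Hspd1 they were Kpnb1, Fam98a and Sec13 (0.980, 0.978 and 0.976), for Hspe1 Psma7, Cox5a and Rer1 (0.965, 0.963 and 0.958), for Dnajb1 Nob1, Atxn7l3 and Ranbp3 (0.932, 0.921 and 0.921), for Hspa8 Clcn4, Rab35 and Ube2z (0.870, 0.864 and 0.863), and for Hspb1 Parvb, Hdc and Bag3 (0.845, 0.843 and 0.809). Chordc1 is a co-chaperone of HSP90 and Bag3 an exchange factor of HSP70. Of the other genes of the 8, only Hsph1 stood among the 50 nearest of another, namely of Hspa8 and Hsp90aa1.

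The first printed sequence lies between the Hspe1 start and the nearer Hspd1 start. After E2 both genes were lower at 2 h than at 24 h, whereas Hsph1, which also holds a 3-unit element, was higher at 2 h. At 2 h of IGF1 Hsph1, Hspd1 and Hspe1 rose by 3.08, 1.23 and 0.81. Hspa1a and Hspb1, which hold elements of 2 units, rose by 1.42 and 0.56 there, and Dnajb1, with no match in its window, by 0.75. Whether these elements bear on the responses was not tested.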

How the data were processed

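Each of the 68 samples was one mouse uterus RNA sample on one array. The values deposited by the authors are normalized log2 intensities of 72688 probe sets, made from 300 ng RNA per the labels' protocols. How they were normalized is not stated in the labels or file headers. Probe sets annotated to 1 symbol (30604) were kept, 1 per gene by the highest mean over the arrays, which left 30142 genes; 2146 probe sets with several symbols and 39938 outside the annotation were not used, except where named. Testing used lmFit and eBayes of limma (version 3.58.1, R version 4.3.3), two-sided, with Benjamini-Hochberg adjustment over the 30142 genes and calls at 0.05. Wild-type responses came from 42 arrays, the model holding treatment and the set, and knockout responses from the 25 Ex3aERKO and 29 ERaUtcKO arrays with 1 mean per group. In all 26 comparisons were tested. Whether samples of a group are separate animals is not labelled, so p-values measure the spread between samples. Arrays have no depth, and their number limits the precision. Genes of related lists could be named only if among the 2 largest called rises or falls of a wild-type response, and genes of like pattern as the 3 with the highest r. The 10 genes and the lists were chosen with earlier results of these data known. Alternatives were scaling, variance model, array weights, a filter on dim genes, other probe sets, each set alone, 1 joint fit, the replicate number as a block, and leaving out each replicate number. The other probe sets of Hspa8 and Hsp90aa1 that carry further symbols were added after seeing the data. The models were checked on simulated data.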

Additional observations from a re-analysis of the deposited data

Results flagged for a closer look

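The response to E2 differed between knockouts and their littermates, by limma's test of that difference, in 16 cases, each a smaller or opposite response in the knockout. Of all genes, 4.85% in Ex3aERKO and 7.08% in ERaUtcKO passed downwards at 2 h, and 10.5% and 15.5% at 24 h. At 2 h of E2 in Ex3aERKO they were Hsph1 (-2.63), Hsp90aa1 (-1.42), Hspd1 (-1.1) and Dnajb1 (-0.94), and in ERaUtcKO Hsph1 (-1.93), Hspd1 (-0.71), Hsp90aa1 (-0.68) and Dnajb1 (-0.44). At 24 h of E2 in Ex3aERKO they were Hspd1 (-2.32), Hsp90aa1 (-1.49) and Hspe1 (-0.84), and in ERaUtcKO Hspd1 (-1.68), Hsph1 (-1.52), Hspe1 (-1.16), Hsp90aa1 (-0.86) and Hspa8 (-0.56). All values are log2 responses of the knockout minus those of littermates. The vehicle difference of 0.85 in Hsp90aa1 enters its values in Ex3aERKO. Hspa8 was read here on the chromosome 6 probe set. At 2 h of E2 its chromosome 9 probe set gave -1.05 in Ex3aERKO and -0.77 in ERaUtcKO, and both passed. None of the 8 genes passed this test for IGF1, where 3 (Ex3aERKO) and 1 (ERaUtcKO) had an unadjusted p under 0.05 at 2 h and 0 at 24 h. Few of all genes passed it either, 0% in Ex3aERKO and 0.511% in ERaUtcKO at 2 h, and 0.0133% and 0.0498% at 24 h. No group holds 4 arrays, so single arrays were not tested for standing apart.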

How the results depend on the processing

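Counts below are genes called of the 8, with the reported count in brackets. Each wild-type set alone has fewer arrays. In ERaUtcKO littermates the counts that moved by over 1.5 times were 5 (8) for E2 at 2 h against vehicle, 1 (3) for E2 against IGF1 at 2 h and 3 (6) for IGF1 2 h against 24 h. In Ex3aERKO littermates they were 2 (8) for IGF1 at 24 h, 0 (3) for E2 against IGF1 at 2 h and 3 (6) for E2 2 h against 24 h, and in C57Bl6 0 (3) for E2 against IGF1 at 24 h and 3 (6) for E2 2 h against 24 h. One fit of all 68 arrays called 2 (1) in Ex3aERKO under vehicle, 3 (0) there at 2 h of E2, 1 (0) at 24 h of E2 and 1 (0) in ERaUtcKO under vehicle. The shares of all genes given above come from the separate fits and not from this one. For E2 at 2 h in ERaUtcKO, quantile normalization and a robust, trended variance each called 1 (3); the cause was not tested. Hspa8 turned sign in the difference of E2 responses at 2 h in Ex3aERKO, to -1.05 on the chromosome 9 probe set. For Hsp90aa1, the probe sets shared with Gm5844 and Gm12346 each left 23 of the 26 comparisons as reported. On the former 3 calls were lost, and on the latter 2 were lost and 1 was gained.

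Leaving out 1 replicate number at a time, where a lone remaining array is assumed to vary like the others, gave 5 to 8 calls for IGF1 at 24 h (8) and 3 to 5 for E2 2 h against 24 h (6). In Ex3aERKO it gave 0 to 1 under vehicle (1), 0 to 3 and 1 to 4 in the difference of E2 responses at 2 h (4) and 24 h (3), and 2 to 5 and 2 to 4 for IGF1 at 2 h (7) and 24 h (4). In ERaUtcKO it gave 0 to 0 for E2 at 2 h (3) and 1 to 4 in the difference of E2 responses at 2 h (4).

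Of the 208 single tests of a gene, centring the arrays kept the call in 201 with 7 uncalled values moved, the dim-gene filter kept 206 and array weights 203. Deviations from group means had a median r of -0.14, -0.0027 and -0.0042 between samples of 1 number in the 3 sets. In C57Bl6 such pairs ran from -0.59 to 0.50, and pairs of unlike number from -0.62 to 0.63. With 2 or 3 arrays per group this cannot settle whether the numbers pair samples. With the replicate number as a block 203 of 208 were kept, with 5 (6) calls for E2 2 h against 24 h, 7 (8) for E2 at 2 h and 2 (3) for E2 at 2 h in ERaUtcKO. Of the 68 chromosome 6 values of Hspa8, 30 lie within 0.5 of the ceiling. Whether this limits the differences they show was not tested.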
